A study of Mus musculus with 9 samples.

Results

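Messenger RNA of 9 chemokine receptors was followed through 9 mouse lung libraries, sorted as eosinophils according to their labels: the CC receptors Ccr1, Ccr2, Ccr3 and Ccr7, the fractalkine receptor Cx3cr1, the CXC receptors Cxcr2 and Cxcr4, and the atypical receptors Ccrl2 and Ackr3. They were taken by gene name from the 54449 genes of the deposited table. Of the 9 receptors, 8 had a mean of at least 5 normalised counts over the 9 libraries and entered the test with 13642 genes in all. Ccr3 did not, with a mean of 4.6. Ccr2 and Cx3cr1 rose in both groups from tumour-injected mice under every setting tried, Ccr1 rose in both, Ackr3 rose in the Siglec-F high group, and Ccr7 and Ccrl2 rose in the Siglec-F int group, but each of these calls was lost without certain single libraries. The calls of Ccr1 in either group, Ackr3 and Ccrl2 held in 7 of 9 fits without 1 library, and that of Ccr7 in 4 of 9. Of such 9 fits, 3 left out a library of the group not compared, and every loss came from the other fits. No receptor differed between the 2 groups from tumour-injected mice at the threshold used.

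Every mouse was of the C57BL/6 strain. The naive group consisted of lung eosinophils, as labelled, from mice given saline alone. The Siglec-F high group (columns named iEOS) and the Siglec-F int group (columns named rEOS) were sorted from metastatic lungs after PyMT tumour cells, which derive from a mouse mammary carcinoma model, had been injected into the tail vein in 200 µl. Each group had 3 libraries, each from cells pooled from 3 to 4 mice, so that the p-values below measure the spread between pools. The labels give a sorting purity above 98% and an RNA integrity number above 6.3, and the ages of the mice are not given in the sources used here. Siglec-F is a sialic acid-binding surface receptor by which mouse eosinophils are commonly sorted, and which alveolar macrophages also carry.

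Chemokine receptors are membrane-spanning proteins coupled to heterotrimeric G proteins, and they steer leukocytes along gradients of secreted chemokines. In the lung, Ccr3 and its eotaxin ligands are known for drawing eosinophils into tissue, whereas Ccr2 and Cx3cr1 mark monocytes and the macrophages derived from them. Atypical receptors such as Ackr3 and Ccrl2 bind their ligands without the usual G protein signal, and clear them or present them to other cells.

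The libraries held between 2205949 reads (naive library 2) and 12495639 reads (Siglec-F int library 3) assigned to genes. The labelled cell type was checked against marker genes. The summed level of 10 eosinophil markers was 268 to 742 normalised counts in naive, 518 to 1148 in Siglec-F high and 190.0 to 412 in Siglec-F int, and 0 of the 6 tested were called. The ribonuclease gene Ear2, at 117 to 568, made up most of it in 7 of the 9 libraries. The peroxidase gene Epx was at 0 in 6 of the 9 libraries and reached at most 17.1, Siglecf ranged from 3.58 to 31.3, and the granule protein gene Prg2 was at most 15.0 except in library 3 of Siglec-F high (379.5) and library 3 of Siglec-F int (106). The summed level of 8 pigment cell markers ran from 58209 to 67239 in the naive libraries, against 209 to 949 in Siglec-F high and 346 to 654 in Siglec-F int, and 8 of 8 fell in both comparisons. The pigment markers go against the cell type label of the naive libraries. The low Epx and Siglecf levels do not bear out the eosinophil label in any group, and all groups are called below only by their labels. The summed level of 7 alveolar macrophage markers, among them Ear1 and Siglecf, was 2531 to 3681 in naive, 5091 to 6496 in Siglec-F high and 2247 to 2715 in Siglec-F int. Chil3 made up most of it in every library, at 1966 to 2991, 4525 to 5839 and 1962 to 2448. Of the 7, 1, Chil3, was called, as higher in Siglec-F high, where 14.7% of all tested genes rose. This call held in 8 of 9 fits without 1 library. The log2 difference was positive for 4 of the 7 in Siglec-F high and for 1 in Siglec-F int. The summed level of 11 monocyte and interstitial macrophage markers was 7049 to 10381 in naive, 13477 to 21790.0 in Siglec-F high and 18120.1 to 74266 in Siglec-F int. That of 5 pan-leukocyte markers was 4670.0 to 7174, 8442 to 13880 and 9200.4 to 31713. Of the 5, Ptprc (CD45) and Cd53 rose in both comparisons, where 14.7% and 12% of all tested genes rose. The log2 difference was positive for 3 of the 5 in Siglec-F high and for 5 in Siglec-F int. Coro1a and Laptm5 had lower means in Siglec-F high (417 and 649) than in naive (592 and 655). Siglec-F int library 2 had the highest sum of both the monocyte and interstitial macrophage list and the pan-leukocyte list. In such bulk libraries, a change in the number of cells of a type and a change in RNA per cell cannot be told apart.

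Ccr1, Ccr2 and Cx3cr1 were higher in both tumour-injected groups than in naive libraries. Ccr1 (ENSMUSG00000025804.5, GRCm38 chromosome 9, 123962124 to 123968692, minus strand) is a receptor for Ccl3, Ccl5, Ccl7 and Ccl9 on monocytes and granulocytes. Ccr2 (ENSMUSG00000049103.14, chromosome 9, 124101950 to 124113557, plus strand) is the receptor for Ccl2, Ccl7 and Ccl12 by which monocytes leave the bone marrow. Cx3cr1 (ENSMUSG00000052336.7, chromosome 9, 119901616 to 120069879, minus strand) binds the membrane-anchored chemokine Cx3cl1, fractalkine. The promoter windows of the 3 genes that rose together are shown so that their starts can be compared. The sequences are from RefSeq (GRCm38.p6), read 5′ to 3′ on the strand of the gene, from 250 bases before to 50 bases after the start.
Ccr1, chr9:123968643-123968942, minus strand: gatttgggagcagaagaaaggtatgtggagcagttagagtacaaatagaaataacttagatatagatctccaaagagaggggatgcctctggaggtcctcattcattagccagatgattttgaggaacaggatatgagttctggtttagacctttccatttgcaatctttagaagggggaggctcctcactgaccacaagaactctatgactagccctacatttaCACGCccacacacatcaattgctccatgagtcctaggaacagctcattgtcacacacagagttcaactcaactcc
Ccr2, chr9:124101933-124102232, plus strand: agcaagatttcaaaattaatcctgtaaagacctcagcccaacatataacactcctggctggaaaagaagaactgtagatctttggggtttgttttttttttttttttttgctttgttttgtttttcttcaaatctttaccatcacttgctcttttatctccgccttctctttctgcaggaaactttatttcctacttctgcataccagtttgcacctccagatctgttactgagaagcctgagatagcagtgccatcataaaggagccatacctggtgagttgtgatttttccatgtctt
Cx3cr1, chr9:120068247-120068546, minus strand: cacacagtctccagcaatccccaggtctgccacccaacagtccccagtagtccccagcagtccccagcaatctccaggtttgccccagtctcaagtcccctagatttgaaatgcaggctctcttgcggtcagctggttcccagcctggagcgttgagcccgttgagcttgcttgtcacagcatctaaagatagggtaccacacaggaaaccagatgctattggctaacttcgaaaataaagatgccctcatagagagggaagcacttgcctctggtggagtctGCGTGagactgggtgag
Capitals here and in the later windows mark matches, on either strand, to the motifs searched for. These were the TATA element TATAAAA, the NF-κB motifs GGACTTTCC, GGAAATTCC and GGGACTTCC, the hypoxia-response cores ACGTG and GCGTG, the PU.1 motif GAGGAAG, the STAT palindrome TTCNNNGAA and an interferon-response motif of GAAA, any 2 bases and GAAA. The last 3 were present in 13.6%, 8.3% and 3.44% of 32851 promoter windows of that length and in no window of the 8 receptors with an entry. Ccr1 held GCGTG on the minus strand at -25 and Cx3cr1 held it at +34, and Ccr2 held none of the 9 motifs. GCGTG was present in 32.4% of the windows. A match describes the letters only.

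Ccr1 was present at 55.1, 167 and 192 normalised counts in naive libraries 1 to 3. Its levels were 664, 396 and 417 in the Siglec-F high libraries and 362, 1346 and 459.9 in the Siglec-F int libraries. Every library from tumour-injected mice lay above every naive library, and Siglec-F int library 2 stood well above the rest. Ccr1 rose by 1.98 ± 0.57 (log2 difference ± SE, n = 3 and 3) in Siglec-F high and by 2.32 ± 0.57 in Siglec-F int, with Benjamini-Hochberg adjusted p-values from limma of 0.0253 and 0.0165. All log2 differences are on the scale log2(normalised count + 1), and a gene was called at an adjusted p under 0.05. The Siglec-F high call was lost in limma without naive library 1 (adjusted p = 0.0864), without Siglec-F high library 1 (0.0603) or without a variance trend (0.0507), within a range over all settings of 0.00491 to 0.0864. The Siglec-F int call was lost without naive library 1 (0.0573) or Siglec-F int library 2 (0.0560), within a range of 0.000322 to 0.0573.

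Ccr2 had 13.8, 13 and 29.2 normalised counts in the naive libraries, 222, 86.5 and 129.6 in Siglec-F high, and 192, 462 and 180.3 in Siglec-F int. The lowest library from tumour-injected mice was thus above the highest naive library. The rise was 2.89 ± 0.53 in Siglec-F high and 3.78 ± 0.53 in Siglec-F int (limma adjusted p = 0.00373 and 0.00134). Cx3cr1 had 42.4, 26.1 and 42.6 in naive, 151, 267 and 217 in Siglec-F high, and 213, 834 and 337 in Siglec-F int, again with no overlap with naive. It rose by 2.48 ± 0.50 and 3.40 ± 0.50 (limma adjusted p = 0.00559 and 0.00156). Under all settings the adjusted p of Ccr2 stayed between 7.96e-06 and 0.0167 in Siglec-F high and between 3.00e-09 and 0.00769 in Siglec-F int. That of Cx3cr1 stayed between 2.67e-05 and 0.0227 and between 6.38e-10 and 0.00941. The annotated locus of Cx3cr1, from its first to its last base, overlaps 9 other genes, and whether their exons overlap was not examined. The sources used here do not give the strand setting of the counting, so these genes may affect the Cx3cr1 count. Receptor genes of this family have related sequences, and how the authors' counting shared reads that match several of them is not given, so that the split of reads between them is uncertain.

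**Figure D1:**
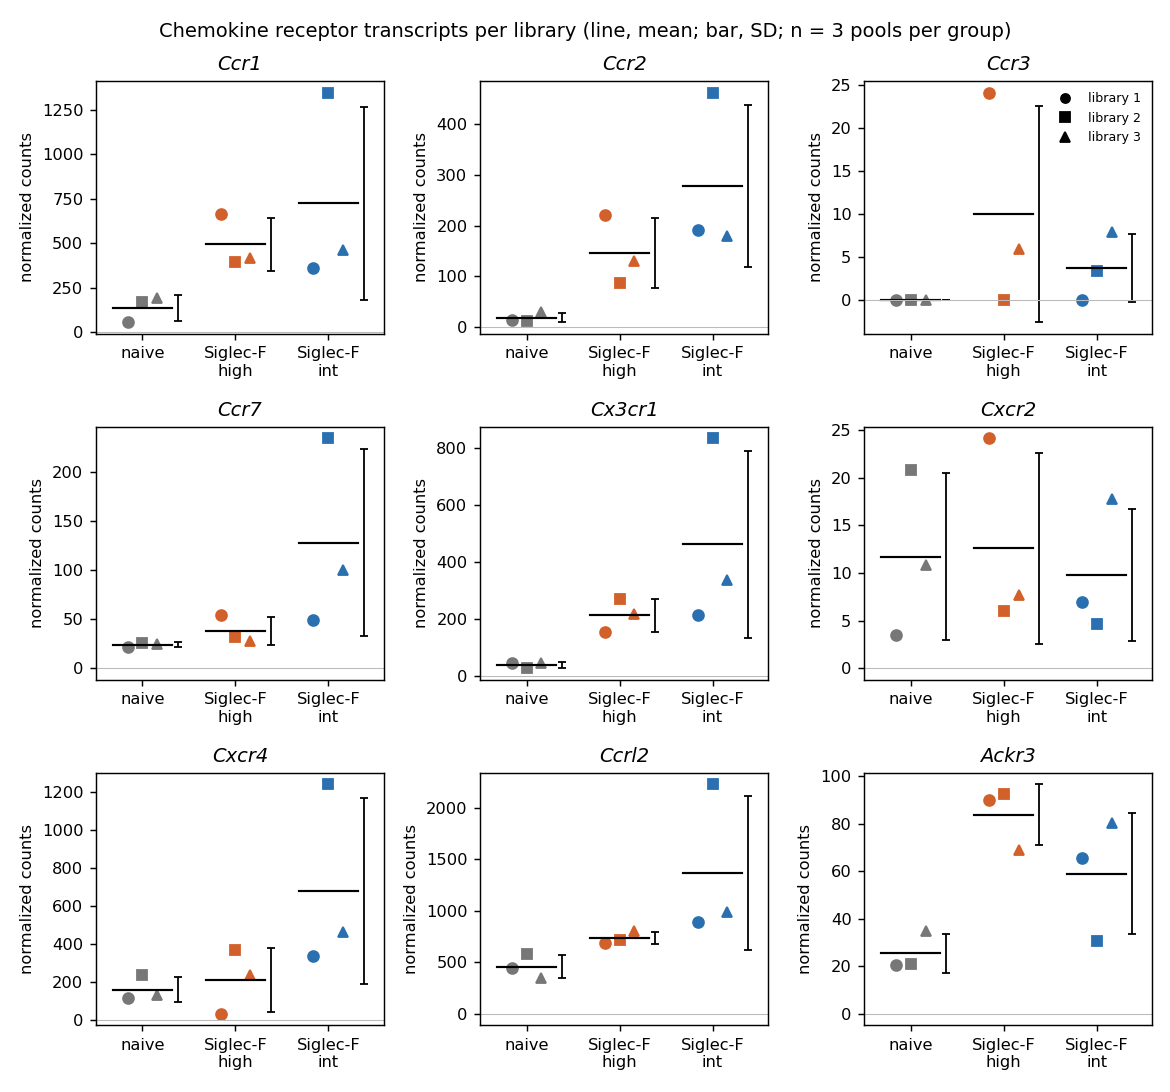
Normalised counts of the 9 chemokine receptors in each of the 9 libraries, by group as labelled, with each point a library, each line a group mean and each bar its SD (n = 3). Ccr1, Ccr2 and Cx3cr1 do not overlap between naive and either tumour-injected group, and Siglec-F int library 2 is the highest library for 6 of the 9 receptors.

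Ccr3 (ENSMUSG00000035448.9, chromosome 9, 124021972 to 124031689, plus strand), the eotaxin receptor that defines eosinophils, was scarcely detected. No read was assigned to it in the 3 naive libraries. The Siglec-F high libraries had 22, 0 and 7 reads, and the Siglec-F int libraries had 0, 8 and 25. The summed 29 reads in Siglec-F high (exact 95% Poisson interval 19.4 to 41.6) and 33 in Siglec-F int (22.7 to 46.3) rest mostly on 1 library each. Set against a limit of 3 reads over the naive group, Ccr3 per normalised depth was at least 6.31-fold higher in Siglec-F high and at least 3.65-fold higher in Siglec-F int. The exact 95% Poisson interval for 0 reads reaches 3.69, and with that limit all these bounds would be lower. Without Siglec-F high library 1 the bound was 2.01-fold, and without Siglec-F int library 3 it was 1.54-fold. These bounds allow for counting error in the naive group alone and take the reads of the other groups as observed, and Ccr3 was not tested between groups. The eotaxin genes Ccl11 and Ccl24, whose products are Ccr3 ligands, had group means of at most 5.92 and 24.7 normalised counts and were not called in either comparison with naive (limma adjusted p = 0.850 and 0.699 for Ccl11, 0.434 and 0.553 for Ccl24).

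Ccr7 (ENSMUSG00000037944.8, chromosome 11, 99144196 to 99155077, minus strand) leads dendritic cells and T cells towards the lymph node ligands Ccl19 and Ccl21. Its levels were 21.8, 26.1 and 24.2 normalised counts in naive, 53.7, 32.2 and 27.3 in Siglec-F high, and 49.4, 234 and 99.95 in Siglec-F int. Both tumour-injected groups lay above naive, though the lowest Siglec-F high library did so by a small margin. Ccr7 rose by 2.09 ± 0.58 in Siglec-F int (limma adjusted p = 0.0276), and the difference in Siglec-F high was 0.58 ± 0.58 (0.459, 95% interval -0.71 to 1.86). The Siglec-F int call was lost in limma when naive library 1 (adjusted p = 0.0755), 2 (0.0571) or 3 (0.0667), or Siglec-F int library 2 (0.102) or 3 (0.0876), was left out, within a range over all settings of 0.000757 to 0.102. The summed level of 8 dendritic cell markers, most of it from the class II gene H2-Aa, was 4589 to 10418 in naive, 4151 to 17149.7 in Siglec-F high and 14956 to 55873 in Siglec-F int, and 1 of the 7 tested, Itgax, rose in Siglec-F int. The Itgax call held in 4 of 9 fits without 1 library, and 12% of all tested genes rose in that comparison. The part of dendritic cells in the Ccr7 result was not tested. Of the Ccr7 ligands, Ccl21a was not called in either group (limma adjusted p = 0.303 and 0.504), and Ccl19 had 3, 0 and 2 reads in naive, Siglec-F high and Siglec-F int.

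Cxcr2 (ENSMUSG00000026180.8, chromosome 1, 74153989 to 74161246, plus strand), the neutrophil receptor for Cxcl1, Cxcl2, Cxcl5 and Ppbp, was low everywhere. Its levels were 3.44, 20.8 and 10.9 normalised counts in naive, 24.1, 5.97 and 7.68 in Siglec-F high, and 6.98, 4.63 and 17.7 in Siglec-F int, from 24, 41 and 80 reads per group. The 3 groups overlapped throughout. The limma differences from naive were 0.13 ± 0.86 (adjusted p = 0.916, 95% interval -1.76 to 2.02) in Siglec-F high and -0.15 ± 0.86 (0.916, -2.04 to 1.74) in Siglec-F int, and both changed sign with the settings.

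Cxcr4 and Ackr3 share the ligand Cxcl12. Cxcr4 (ENSMUSG00000045382.6, chromosome 1, 128588199 to 128592293, minus strand) signals through G proteins and holds leukocytes in bone marrow and tissue. Ackr3 (ENSMUSG00000044337.5, chromosome 1, 90203980 to 90216751, plus strand) takes up Cxcl12 without that signal and is known in stromal and endothelial cells. Their RefSeq promoter windows are shown because the levels of these receptors of 1 ligand followed different patterns.
Cxcr4, chr1:128592250-128592549, minus strand: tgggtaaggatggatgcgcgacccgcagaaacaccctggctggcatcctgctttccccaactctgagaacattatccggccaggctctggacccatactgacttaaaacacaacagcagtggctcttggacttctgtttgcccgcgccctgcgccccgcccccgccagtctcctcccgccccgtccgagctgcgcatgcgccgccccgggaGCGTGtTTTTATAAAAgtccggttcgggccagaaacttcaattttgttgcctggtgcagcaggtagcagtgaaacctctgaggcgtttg
Ackr3, chr1:90203730-90204029, plus strand: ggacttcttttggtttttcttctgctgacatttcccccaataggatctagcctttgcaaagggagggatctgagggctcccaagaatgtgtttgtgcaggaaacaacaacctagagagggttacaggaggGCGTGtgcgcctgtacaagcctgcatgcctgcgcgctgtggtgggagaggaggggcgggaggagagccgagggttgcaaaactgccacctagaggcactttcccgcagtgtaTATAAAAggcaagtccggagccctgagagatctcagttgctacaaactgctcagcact
Both windows held TATAAAA, at -30 and, on the minus strand, at -33 in Cxcr4 and at -8 in Ackr3, a motif found in 5.48% of the 32851 windows. Both also held GCGTG, at -39 and -120.

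Cxcr4 had 116, 234 and 129 normalised counts in naive, 31.8, 366 and 237 in Siglec-F high, and 336, 1239 and 462 in Siglec-F int. Siglec-F high library 1 was the lowest of all 9 and the other Siglec-F high libraries were above naive, so these groups overlapped. The Siglec-F int libraries were all above naive. Neither limma difference passed the threshold, at -0.10 ± 0.81 in Siglec-F high (adjusted p = 0.931, 95% interval -1.88 to 1.68) and 1.92 ± 0.81 in Siglec-F int (0.111, 0.14 to 3.70). The first difference changed sign under 8 settings and became 0.95 without Siglec-F high library 1 (adjusted p = 0.199). The second passed the threshold without that library (0.0117), in limma with the 2 groups alone (0.0206) or with the replicate number as a block (0.0314), with library 1 of Siglec-F high and library 2 of Siglec-F int both left out (0.0225), in edgeR (2.32, 0.0475) and in DESeq2 (2.19, 0.0122), within a range over all settings of 0.0117 to 0.321.

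Ackr3 was at 20.6, 20.8 and 35.1 normalised counts in naive, 89.9, 92.5 and 69.1 in Siglec-F high, and 65.5, 30.8 and 80.3 in Siglec-F int. The Siglec-F high libraries lay above all naive ones, whereas Siglec-F int library 2 fell within the naive range. Ackr3 rose by 1.71 ± 0.49 in Siglec-F high (limma adjusted p = 0.0245), and its difference in Siglec-F int was 1.11 ± 0.49 (0.126, 95% interval 0.03 to 2.19). The Siglec-F high call was lost in limma without naive library 1 (0.0684) or 2 (0.0603) and with the 2 groups alone (0.0513), within a range of 0.00407 to 0.0684. The sum of 6 fibroblast markers was 5392 to 7019.6 in naive, 22342 to 32699 in Siglec-F high and 9257 to 23765 in Siglec-F int. Of these, 4 of 6 and 3 of 6 rose, where 14.7% and 12% of all tested genes rose. Per 1000 fibroblast marker counts, Ackr3 was 3.00 to 5.0 (median 3.86) in naive, 2.68 to 4.14 (2.75) in Siglec-F high and 2.76 to 4.04 (3.32) in Siglec-F int, and the groups overlapped. The sum of 6 endothelial markers was 659 to 828 in naive, 547 to 720 in Siglec-F high and 458 to 544 in Siglec-F int. Of those 6, 0 were called in either comparison. The part of either cell type in the Ackr3 result was not tested.

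The ratio of Cxcr4 to Ackr3 counts was 5.61, 11.2 and 3.67 in the naive libraries, 0.354, 3.96 and 3.43 in Siglec-F high, and 5.12, 40.3 and 5.76 in Siglec-F int. All Siglec-F int ratios were above all Siglec-F high ratios, and naive overlapped both. Over the 9 libraries, log2 levels of Cxcr4 and Ackr3 had a Pearson r of -0.09, against 0.930 for Ccr2 and Cx3cr1, 0.920 for Ccr1 and Ccr2 and 0.900 for Ccr7 and Ccrl2. These values describe 9 libraries in 3 groups that share library-wide differences, and no p is given. Cxcl12 itself had 88.3, 133 and 121 normalised counts in naive, 688, 454 and 496 in Siglec-F high, and 387, 177 and 350.1 in Siglec-F int. The ligand gene rose in both groups, by 2.25 ± 0.37 and 1.35 ± 0.37 (limma adjusted p = 0.00214 and 0.0252), and its Siglec-F int call was lost in 4 of the 9 fits without 1 library (naive library 1 or 3, or Siglec-F int library 1 or 3, with adjusted p up to 0.110).

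**Figure D2:**
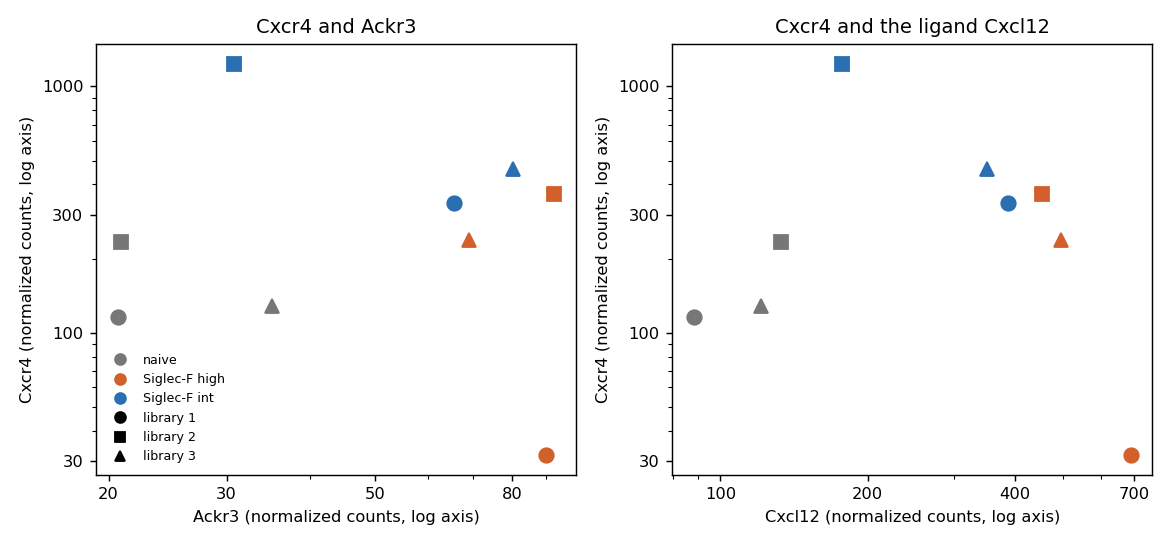
Normalised counts of Cxcr4 (vertical, log axis) against those of Ackr3 (left) and of the ligand gene Cxcl12 (right, both log axes), with each point a library, coloured by group as labelled. Cxcr4 is lowest in Siglec-F high library 1 and highest in Siglec-F int library 2, while Ackr3 is higher in all Siglec-F high libraries than in any naive library.

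Ccrl2 (ENSMUSG00000043953.12, chromosome 9, 111054486 to 111057519, minus strand) is an atypical receptor that presents chemerin to other cells and is induced in activated myeloid and endothelial cells. Its RefSeq promoter window, 1 of 3 listed, is shown for its match to an NF-κB motif.
Ccrl2, chr9:111057469-111057768, minus strand: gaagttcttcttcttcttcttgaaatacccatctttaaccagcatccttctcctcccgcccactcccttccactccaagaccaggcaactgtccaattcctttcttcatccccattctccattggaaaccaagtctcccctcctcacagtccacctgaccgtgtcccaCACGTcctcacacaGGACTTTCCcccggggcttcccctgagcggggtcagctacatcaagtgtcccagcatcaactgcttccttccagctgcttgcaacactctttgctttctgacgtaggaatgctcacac
The capitals mark GGACTTTCC at -68, which 0.344% of the 32851 windows held, and ACGTG on the minus strand at -82, which 19.6% held. The other Ccrl2 windows held none of the NF-κB motifs. The Ccr3 window, not shown, held the NF-κB motif GGAAATTCC at -179, which 0.317% of the windows held. The remaining NF-κB motif, GGGACTTCC, was in 0.834% of the windows and in none of these receptors. Ccrl2 was at 449.6, 578 and 350.0 normalised counts in naive, 687, 721 and 801 in Siglec-F high, and 887, 2229.6 and 992 in Siglec-F int. The 3 groups did not overlap, with naive lowest and Siglec-F int highest. The rise in Siglec-F int was 1.48 ± 0.37 (limma adjusted p = 0.0170), and the difference in Siglec-F high was 0.71 ± 0.37 (0.155, 95% interval -0.10 to 1.51). The Siglec-F int call was lost in limma without naive library 1 (0.0504) or 3 (0.0647), within a range of 0.000515 to 0.0647. The chemerin gene Rarres2 had means of 221 ± 85.8, 153 ± 51.2 and 80.9 ± 11.4 normalised counts (SD, n = 3 each) in naive, Siglec-F high and Siglec-F int. It fell by 1.38 ± 0.39 in Siglec-F int (limma adjusted p = 0.0283), a call that was lost in 5 of 9 fits without 1 library (naive library 2 or 3, or any Siglec-F int library, with adjusted p up to 0.103).

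Of the 8 tested receptors, 4 rose and 0 fell in Siglec-F high against naive, where 14.7% of all tested genes rose and 16.6% fell. In Siglec-F int against naive, 5 rose and 0 fell, where 12% of all genes rose and 10.3% fell. The median log2 difference of the receptors was 1.21 and 2.0 in these comparisons, against -0.11 and -0.02 over all tested genes. The same naive libraries served in both, so the comparisons are not independent of each other. All 3 libraries were above all naive libraries for 6 of 8 receptors in each, against 20.2% and 23.3% of all genes, while 26.3% and 27.6% of all genes and no receptor were below naive in this way. Leaving out naive library 1 reduced the called receptors to 2 in either comparison, Ccr2 and Cx3cr1. In Siglec-F int, 3 were left without naive library 3 and 3 without Siglec-F int library 2. Over all genes, 1999 rose and 2267 fell in Siglec-F high, and 1634 rose and 1402 fell in Siglec-F int. When the libraries were scaled to equal totals instead, these became 2141 and 1612, and 2009 and 898. That scaling moved the median of all genes to 0.02 and 0.23, and the same number of receptors was called.

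No receptor was called between Siglec-F high and Siglec-F int, nor was any of the 13642 genes in limma (0%), with 591 genes at an unadjusted p under 0.05, 2 of them receptors. DESeq2 called 6 genes and edgeR 0, none of them receptors, with 909 and 636 genes at an unadjusted p under 0.05. The median log2 difference of the receptors, Siglec-F high minus Siglec-F int, was -0.83, against -0.08 over all genes. The receptors at an unadjusted p under 0.05 were Cxcr4, at -2.02 ± 0.81 (limma adjusted p = 0.797, 95% interval -3.80 to -0.24), and Ccr7, at -1.51 ± 0.58 (0.797, -2.80 to -0.23). Ccrl2 was the 1 receptor whose 2 groups did not overlap, at -0.77 ± 0.37 (-1.58 to 0.04), where 5.75% of all genes were lower and 5.52% higher in this way. Ackr3 was the receptor with the highest difference, at 0.60 ± 0.49 (0.798, -0.48 to 1.68). The intervals of Ccr1 (-1.60 to 0.91), Ccr2 (-2.06 to 0.28) and Cx3cr1 (-2.01 to 0.17) also included 0.

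**Figure D3:**
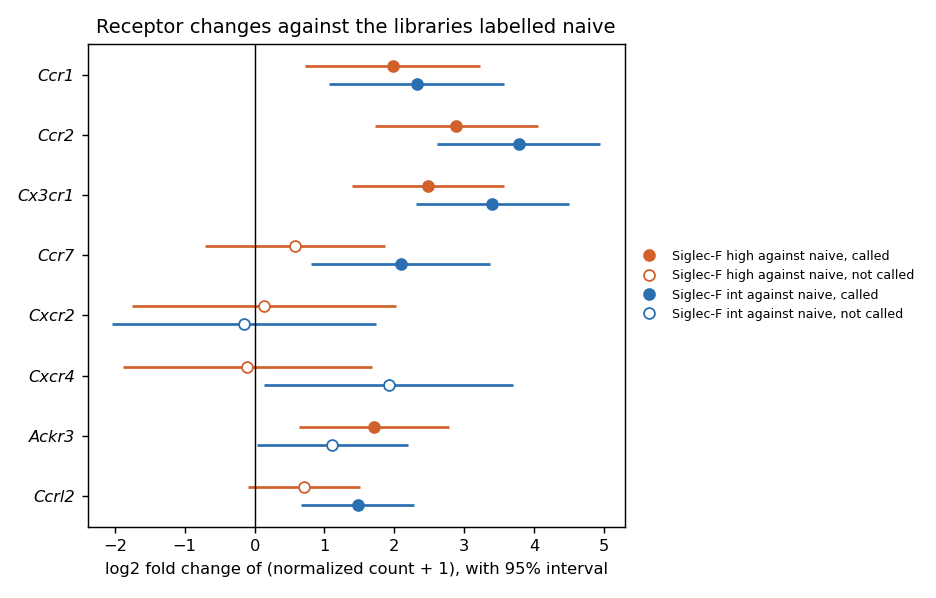
Log2 difference with its 95% interval for the 8 tested receptors in Siglec-F high and Siglec-F int against the same naive libraries, from limma on log2(normalised count + 1). Filled points passed an adjusted p of 0.05, with 4 filled for Siglec-F high and 5 for Siglec-F int.

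The receptors were also set against the summed pan-leukocyte markers, a sum higher in every library from tumour-injected mice than in any naive library. Of its 5 genes, Coro1a and Laptm5 had lower means in Siglec-F high than in naive. Per 1000 pan-leukocyte counts, Ccr2 was 2.77, 1.82 and 6.26 in naive, 16, 8.15 and 15.4 in Siglec-F high, and 20.9, 14.6 and 16.2 in Siglec-F int. Cx3cr1 was 8.55, 3.63 and 9.12 in naive, 10.9, 25.2 and 25.8 in Siglec-F high, and 23.2, 26.3 and 30.3 in Siglec-F int. For both, naive remained below and apart from the other groups on this scale. Per 1000 counts of the monocyte and interstitial macrophage markers, Cx3cr1 also stayed apart, at 2.51 to 6.04 in naive, 11.2 to 13.3 in Siglec-F high and 11.2 to 15.8 in Siglec-F int. Ccr2 on that scale was 1.26 to 4.15, 3.97 to 16.4 and 6.22 to 10.6, so that naive overlapped Siglec-F high. Per 1000 fibroblast marker counts, naive overlapped Siglec-F high for both Ccr2 (1.997 to 4.16 against 3.87 to 6.78) and Cx3cr1 (4.83 to 6.16 against 4.63 to 12.0). Siglec-F int lay above naive for both (from 8.09 and 8.97), but overlapped Siglec-F high for Cx3cr1. The part of these cell types in the results was not tested. The values that follow are again per 1000 pan-leukocyte counts. Ccr1 was 11.1, 23.2 and 41.1 in naive, against 37.3 to 49.4 in Siglec-F high and 39.4 to 42.4 in Siglec-F int, so that naive library 3 overlapped both. Ccrl2 was 74.9 to 90.6 in naive, 49.5 to 94.9 in Siglec-F high and 70.3 to 96.4 in Siglec-F int. Cxcr4 was 23.3 to 32.7 in naive, 36.5 to 41.5 in Siglec-F int, and 2.29, 34.5 and 28.1 in Siglec-F high. Ccr7 was 3.63 to 5.19 in naive, 3.04 to 3.87 in Siglec-F high and 5.37 to 8.97 in Siglec-F int. In Siglec-F int library 2, which had the highest level of 6 receptors, these ratios lay between those of the other libraries of its group for Cx3cr1, Cxcr4 and Ccr7, above them for Ccr1, and below them for Ccr2 and Ccrl2. Ackr3 was 2.90 to 7.51 in naive, 6.48 to 8.72 in Siglec-F high and 0.970 to 7.21 in Siglec-F int, and Cxcr2 was 0.693 to 2.90, 0.563 to 1.74 and 0.146 to 1.59, so that the groups overlapped for both.

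**Figure D4:**
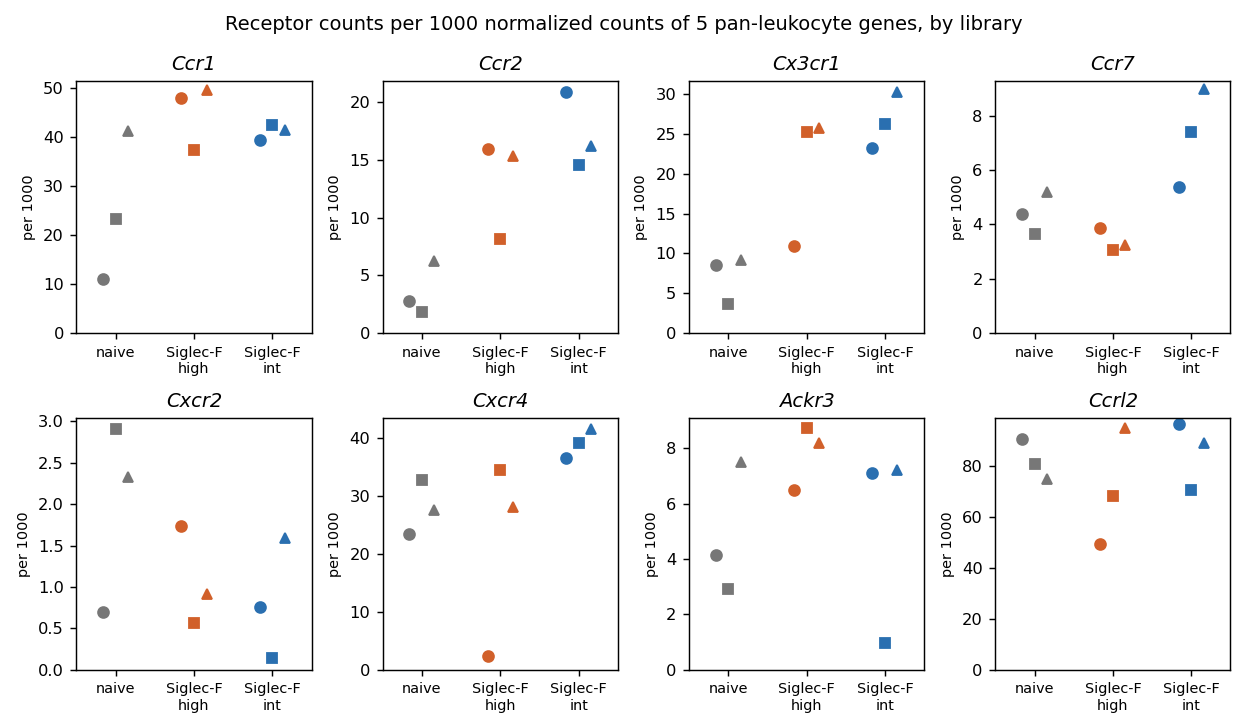
Receptor counts per 1000 summed counts of 5 pan-leukocyte markers in each library, by group as labelled. Ccr2 and Cx3cr1 are lower in the naive libraries than in every library from tumour-injected mice, while Ccr1 and Ccrl2 overlap.

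The ligand genes of these receptors formed a list of 22, of which 21 were tested. In Siglec-F high, 9 rose and 0 fell (median log2 difference 1.04), and in Siglec-F int, 12 rose and 1, Rarres2, fell (median 1.36). Over all tested genes, 14.7% rose and 16.6% fell in Siglec-F high, and 12% and 10.3% in Siglec-F int. Some of the ligand calls were unstable. In Siglec-F high and Siglec-F int, those of Ccl3 held in 3 and 4 of 9 fits without 1 library, and those of Cxcl2 in 4 and 2. Ccl2, the main monocyte chemokine and a Ccr2 ligand, had 1151, 2277 and 1488 normalised counts in naive, 49619, 26154 and 31920 in Siglec-F high, and 29047, 18647 and 28159 in Siglec-F int. The naive libraries were far below all others. Ccl2 rose by 4.46 ± 0.36 and 3.98 ± 0.36 (limma adjusted p = 9.88e-05 and 0.000212). Ccl7, which binds Ccr1, Ccr2 and Ccr3, rose by 2.49 ± 0.34 and 2.78 ± 0.34 (0.000848 and 0.000734). Cx3cl1, the Cx3cr1 ligand, was at 8.03, 2.61 and 18.4 in naive, 109, 131 and 120.3 in Siglec-F high, and 138, 62.4 and 119.9 in Siglec-F int. It too showed no overlap and rose by 3.81 ± 0.62 and 3.57 ± 0.62 (limma adjusted p = 0.00203 and 0.00337). The calls of Ccl2, Ccl7 and Cx3cl1 held in all 9 fits without 1 library, in both comparisons. For Cxcl11, no read was assigned in naive, 7 in Siglec-F high and 103 in Siglec-F int, so its fitted difference is not given. Its group means were 0, 1.39 and 15.5, so it reached the minimum mean of 5 only through Siglec-F int. Its Siglec-F int call, counted among the 12, is therefore no separate evidence, and it held in 5 of 9 fits without 1 library. No ligand was called between Siglec-F high and Siglec-F int (median -0.20).

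Of 16 other chemokine receptor genes, 9 were tested. Cmklr1, the signalling chemerin receptor, rose by 2.49 ± 0.56 in Siglec-F int (limma adjusted p = 0.0108), held in all 9 fits without 1 library, and by 1.61 ± 0.56 in Siglec-F high (0.0487), held in 2 of 9. Cxcr3, a receptor of activated T cells, fell by 3.42 ± 1.05 in Siglec-F high (limma adjusted p = 0.0315), from 44.5 ± 15.8 to 5.40 ± 6.05 normalised counts (SD, n = 3 each), and this call held in 4 of 9 fits and was lost in edgeR (0.0994). The median over the 9 tested genes was 1.11 and 1.05 in the comparisons with naive, and 0.57 between Siglec-F high and Siglec-F int with 0 called.

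Among 25 tested genes of signalling and migration downstream of these receptors, 6 rose in Siglec-F high (median 0.71) and 8 in Siglec-F int (median 1.61), and 0 fell. Over all tested genes, 14.7% and 12% rose in these comparisons. Rgs1 and Rgs2, which shorten G protein signals, were in both sets. Rgs1 was at 35.6, 159 and 34.3 normalised counts in naive, 1242, 407 and 403 in Siglec-F high, and 479, 1497 and 708 in Siglec-F int, and rose by 3.32 ± 0.67 and 3.76 ± 0.67 (limma adjusted p = 0.00581 and 0.00390). Rgs2 rose by 1.83 ± 0.41 and 2.01 ± 0.41 (0.00899 and 0.00694). Gnai3, a subunit of the inhibitory G protein, rose by 1.75 ± 0.37 in Siglec-F high (0.00722), and Elmo1, which works with Dock2 to activate Rac, rose by 2.26 ± 0.48 in Siglec-F int (0.00867). These calls held in all 9 fits without 1 library. Not all calls of the list did: that of Gnai3 in Siglec-F int held in 3 of 9, and that of Elmo1 in Siglec-F high in 5 of 9. Between Siglec-F high and Siglec-F int, 0 of the 25 were called (median -0.67).

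The genes whose log2 levels were most like those of each receptor over the 9 libraries were taken from 8118 genes with a mean of at least 50, as a description. For Ccr1 they were Gda (Pearson r = 0.982) and Cept1 (0.978), and for Ccr2 they were Lacc1 (0.987) and Havcr2 (0.986), the gene of TIM-3. For Cx3cr1 they were Mcl1 (0.989) and Rab7b (0.981), and for Ccr7 they were Cd274 (0.978), the gene of PD-L1, and Cd300lf (0.962). Cxcr4 was most like Vav1 (0.989) and the complement gene C1qa (0.989), and Ccrl2 most like Gdi2 (0.985) and Inpp5d (0.981). Ackr3 stood with other genes, Wls (0.969) and Pdzrn3 (0.969).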

How the data were processed

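Per the labels, libraries were made by a CEL-seq type protocol. The submitters' processing notes name GRCm38, TopHat2 2.1.0, HTSeq and DESeq2 1.10.0. The table deposited by the authors holds a signal per gene and library, namely normalised counts: read counts scaled by 1 factor per library. Dividing each column by its smallest step returned whole reads for 100% of values up to 2000 reads, within 0.05 read. These reads give the depth, and intervals and limits cover counting error only.

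From the deposited entries, those left out were 63 with date-like names (0.219% of the total), 116 exact duplicates and 42 repeating another entry's name and values. Genes with a mean of at least 5 over 9 libraries entered limma 3.58.1 (R 4.3.3) as log2(value + 1). A single fit covered the 3 groups and used a mean-variance trend. Tests were two-sided, with Benjamini-Hochberg adjustment over all 13642 genes at 0.05. The fit was also run on simulated data, in which the libraries of a group shared the same mean for each gene, with independent noise. Since no simulated library was made to stand apart, that run does not speak for the calls given here. The receptors, lists and tests were chosen with earlier results of these data known. All receptors and any of their ligands could be named. From each list, up to 3 called genes per direction with the smallest adjusted p were named.

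Positions come from GENCODE M21 and promoter windows from RefSeq, in which 8 of the 9 receptors matched. Alternatives were other scalings, filters, pseudocounts and fits, recovered reads tested with edgeR 4.0.16 and with DESeq2 1.42.0, a replicate block, and leaving out libraries. One gene of the list of other chemokine receptors is not reported here.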

Additional observations from a re-analysis of the deposited data

How the results depend on the processing

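Of the values of single receptors under other settings, 481 kept their direction and side of the threshold, 15 lost a call, 8 gained one and 21 changed sign. The sign changes were of receptors that were not called. Cxcr4 in Siglec-F high against naive turned from -0.10 to 0.0358 with equal totals, 0.0681 with TMM, 0.10 with quantile normalisation, 0.62 in edgeR, 0.51 in DESeq2, and 0.95 with library 1 of Siglec-F high and library 2 of Siglec-F int both left out (-0.79 to 0.95 without 1 library). Cxcr2 in that comparison was -0.43 with both left out (-0.49 to 0.66 without 1 library). In Siglec-F int against naive, Cxcr2 was 0.0943 with equal totals, 0.0308 with TMM, 0.22 with both left out and 0.0208 in edgeR (-0.77 to 0.38 without 1 library). In Siglec-F high against Siglec-F int it was -0.65 with both left out (-0.28 to 0.78 without 1 library), and Ccr1 ran from -0.72 to 0.23 without 1 library. With the 2 groups alone, 2509 genes were called in Siglec-F high and 4808 in Siglec-F int against naive, with both libraries left out 4623 in Siglec-F int, and in DESeq2 6 between Siglec-F high and Siglec-F int. Without 1 library, the called genes ran from 2770 to 5101 and from 1401 to 5167, and the called receptors from 2 to 4 and from 2 to 6. The cause was not tested. With the replicate number as a block, 4317, 3091 and 0 genes and 4, 6 and 0 receptors were called in the 3 comparisons. The receptor added was Cxcr4 in Siglec-F int (adjusted p = 0.0314). Same-numbered libraries deviated together with correlations of -0.03 to 0.141. Between Siglec-F high and Siglec-F int these were 0.123, 0.141 and 0.0718, against -0.157 to -0.0105 for libraries with different numbers. Whether the numbers pair these groups was not tested, and the labels do not say so. The main fit did not use the numbers. With both libraries left out, Ccrl2 in Siglec-F high (0.76, limma adjusted p = 0.0440) and Ackr3 in Siglec-F int (1.51, 0.0291) passed the threshold. With a minimum mean of 20, Cxcr2 was not tested. Depth limits Ccr3 and Cxcr2, which rest on 62 and 145 reads in all.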
